A study of Mus musculus with 12 samples.

Results

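Genes of the oligodendrocyte lineage and of myelin were followed in the striatum of mice that carried a mutant or a control form of the Huntington's disease gene, with or without the metabotropic glutamate receptor mGluR5. The set was a fixed list of 42 genes covering oligodendrocyte precursors, myelinating cells and mature oligodendrocytes. A gene counted as found when at least 1 probe set of the array carried its symbol and no other, and 40 of the 42 were found among 19938 genes so represented. Enpp2 was not listed in the annotation used, and the probe set of Evi2a carried several symbols, so neither was measured here. All 40 found genes passed the filter on low signal, so that the values below cover every member found, each through exactly 1 probe set.

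RNA came from the dissected striatum of 90-day-old male mice on a mixed background labelled 129 * CD-1 * C57BL/6 * FV. It was read on 12 Affymetrix whole-transcript arrays, and the deposited values are log2 signals. The 4 groups had 3 arrays each. Every mouse was homozygous for a knock-in allele of Htt (the mouse huntingtin gene, also called Hdh), either HdhQ20/Q20, the control allele with a short glutamine repeat, or HdhQ111/Q111, the expanded allele. Within each allele, mice were mGluR5+/+ or mGluR5-/-, the latter lacking Grm5, which encodes mGluR5. The control groups therefore also carried a knock-in allele, and the share of each parental strain in each group is not given in the sources used here. Whether a group's 3 arrays are 3 different mice is not stated in the labels, and p-values therefore measure only the spread between these arrays, which may be technical.

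Oligodendrocytes are the cells that wrap axons of the central nervous system in myelin, a stack of lipid-rich membrane held together by dedicated proteins. They arise from precursors that express the receptor for platelet-derived growth factor, and the transcription factors Olig2, Sox10 and Myrf drive them in turn towards the myelinating state. In the striatum they sit mainly in the fibre bundles that cross the tissue.

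Promoter sequence was read for the members whose signals differed most between the Htt alleles and which the RefSeq table held (build GRCm38.p6). These are shown because Klk6 was the called member and the other 4 genes had the next smallest p in the average comparison of the alleles, apart from Myrf, which the table did not hold. Each run is the 250 bases before an annotated start, written 5′ to 3′ on the strand of the gene. Capitals mark matches to ACAAAG or ACAATG on either strand, letters bound by SOX factors such as Sox10, and to CTGGCAC or CTGGTAC on either strand, letters bound by Myrf.
Klk6, first start (chr7:43824294-43824543, + strand): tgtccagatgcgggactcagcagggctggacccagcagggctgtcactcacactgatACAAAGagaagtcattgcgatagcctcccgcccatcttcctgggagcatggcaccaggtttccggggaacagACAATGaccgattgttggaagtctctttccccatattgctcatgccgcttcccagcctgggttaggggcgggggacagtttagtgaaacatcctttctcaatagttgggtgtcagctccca
Klk6, second start (chr7:43825200-43825449, + strand): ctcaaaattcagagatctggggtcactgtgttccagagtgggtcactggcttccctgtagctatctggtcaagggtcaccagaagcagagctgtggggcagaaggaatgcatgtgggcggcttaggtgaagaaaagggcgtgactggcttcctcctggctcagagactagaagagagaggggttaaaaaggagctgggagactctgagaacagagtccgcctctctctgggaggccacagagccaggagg
Ninj2 (chr6:120093130-120093379, + strand): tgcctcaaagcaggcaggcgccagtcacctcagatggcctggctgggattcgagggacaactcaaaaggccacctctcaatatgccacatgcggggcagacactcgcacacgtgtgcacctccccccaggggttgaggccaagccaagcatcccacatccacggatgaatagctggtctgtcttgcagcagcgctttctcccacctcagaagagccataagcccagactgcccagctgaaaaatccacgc
Enpp6 (chr8:46986637-46986886, + strand): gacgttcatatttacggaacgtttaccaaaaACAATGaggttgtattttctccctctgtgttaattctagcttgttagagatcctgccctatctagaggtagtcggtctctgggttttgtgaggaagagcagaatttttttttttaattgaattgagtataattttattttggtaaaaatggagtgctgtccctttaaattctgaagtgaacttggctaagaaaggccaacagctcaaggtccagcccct
Mag, second start (chr7:30914864-30915113, - strand): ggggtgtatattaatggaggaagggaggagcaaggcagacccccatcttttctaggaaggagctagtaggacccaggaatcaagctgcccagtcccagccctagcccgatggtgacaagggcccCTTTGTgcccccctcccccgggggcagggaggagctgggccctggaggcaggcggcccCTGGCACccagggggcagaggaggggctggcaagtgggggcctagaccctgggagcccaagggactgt
Mog (chr17:37023399-37023648, - strand): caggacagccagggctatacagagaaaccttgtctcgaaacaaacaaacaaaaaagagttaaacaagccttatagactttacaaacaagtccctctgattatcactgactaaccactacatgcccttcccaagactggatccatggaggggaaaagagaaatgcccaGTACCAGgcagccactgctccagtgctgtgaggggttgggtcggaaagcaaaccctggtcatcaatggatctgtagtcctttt

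The first start of Klk6 had 2 matches to the SOX letters, and Enpp6 and the second start of Mag had 1 each. That start of Mag and the promoter of Mog had 1 match each to the Myrf letters. Ninj2, the second start of Klk6 and the first of the 3 starts of Mag (chr7:30914322-30914571, not shown) had neither set of letters in this window. The third start of Mag, whose window overlaps that of the second, also had 1 match to each set. Of the 42 members, 31 were matched in the promoter table, with 46 starts. The SOX letters stood before at least 1 start of 16 of these 31 genes (51.6%), against 28.2% of 27025 genes in the table. The Myrf letters stood before 5 of the 31 (16.1%), against 6.79% of all genes. Both sets of letters were chosen after the promoters of Klk6, Ninj2, Enpp6, Mag and Mog had been seen, so these shares are a description only. A match is a string of letters and not a measured binding site.

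The arrays and their labels were checked first. Mean Grm5 signal was 12.00 ± 0.07 (SD, n = 3) in the Q20 group with the receptor and 11.06 ± 0.12 in the one without, and 11.94 ± 0.08 and 11.07 ± 0.08 in the corresponding Q111 groups. All 6 arrays labelled mGluR5-/- lay below all 6 labelled mGluR5+/+, although the position of the probes relative to the deleted part is not given in the sources used here. The mean signal of 10 markers of striatal projection neurons lay between 11.28 and 11.44 in every array, and that of 7 cortical markers between 6.64 and 7.07. The interquartile range of the deposited values, a measure of how widely an array's signals spread, ran from 2.56 to 2.95 across arrays. Replicate 2 of Q20 with mGluR5 stood lowest for the members, with a mean over the 40 of 9.27, and values without it are given beside the main counts and several of the differences that use it.

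For the most strongly hybridising sheath genes and enzymes, group means lay close together. Mbp, myelin basic protein, averaged 11.37 ± 0.10 and 11.30 ± 0.03 in Q20 mice with and without mGluR5, and 11.30 ± 0.09 and 11.48 ± 0.05 in Q111 mice with and without it (SD, n = 3, here and below). Cldn11, the claudin that seals the myelin layers, averaged 11.21 ± 0.17, 11.30 ± 0.11, 11.30 ± 0.09 and 11.39 ± 0.09 in the same order of groups. Neither gene had a group apart from all the others. Among the enzymes, Sirt2, a deacetylase abundant in myelin, averaged 10.94 ± 0.10, 10.90 ± 0.06, 10.96 ± 0.04 and 10.97 ± 0.04. Car2, carbonic anhydrase, averaged 10.62 ± 0.15, 10.66 ± 0.16, 10.75 ± 0.17 and 10.79 ± 0.03. The arrays of all groups overlapped for Sirt2. For Car2 they did too, except that Q111 without mGluR5 lay wholly above Q20 with mGluR5. Levels of different genes are not set against each other, because probe sets differ in how brightly they bind.

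Among the regulators, receptors and secreted proteins, some group means lay further apart. Myrf, Gjc3 and Trf, the members with the highest signal of their roles, averaged 9.38 to 9.63, 10.29 to 10.57 and 11.39 to 11.74. These are ranges over the 4 groups, and the 3 genes return below. Olig1, a basic helix-loop-helix factor of the lineage, averaged 9.34 ± 0.10, 9.25 ± 0.18, 9.35 ± 0.14 and 9.37 ± 0.08 in Q20 with, Q20 without, Q111 with and Q111 without mGluR5. The precursor genes Pdgfra, the platelet-derived growth factor receptor, and Cspg4, the NG2 proteoglycan, averaged 8.92 to 9.14 and 7.57 to 7.76 over the 4 groups. Lpar1, a receptor for lysophosphatidic acid, averaged 8.79 to 8.96, and Apod, the lipid carrier apolipoprotein D, 10.53 to 10.72. Across the 12 arrays a member's signal spanned from 0.19 log2 units for Sirt2 to 1.48 for Klk6, and Klk6 was the only member that spanned more than 1.

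**Figure D1:**
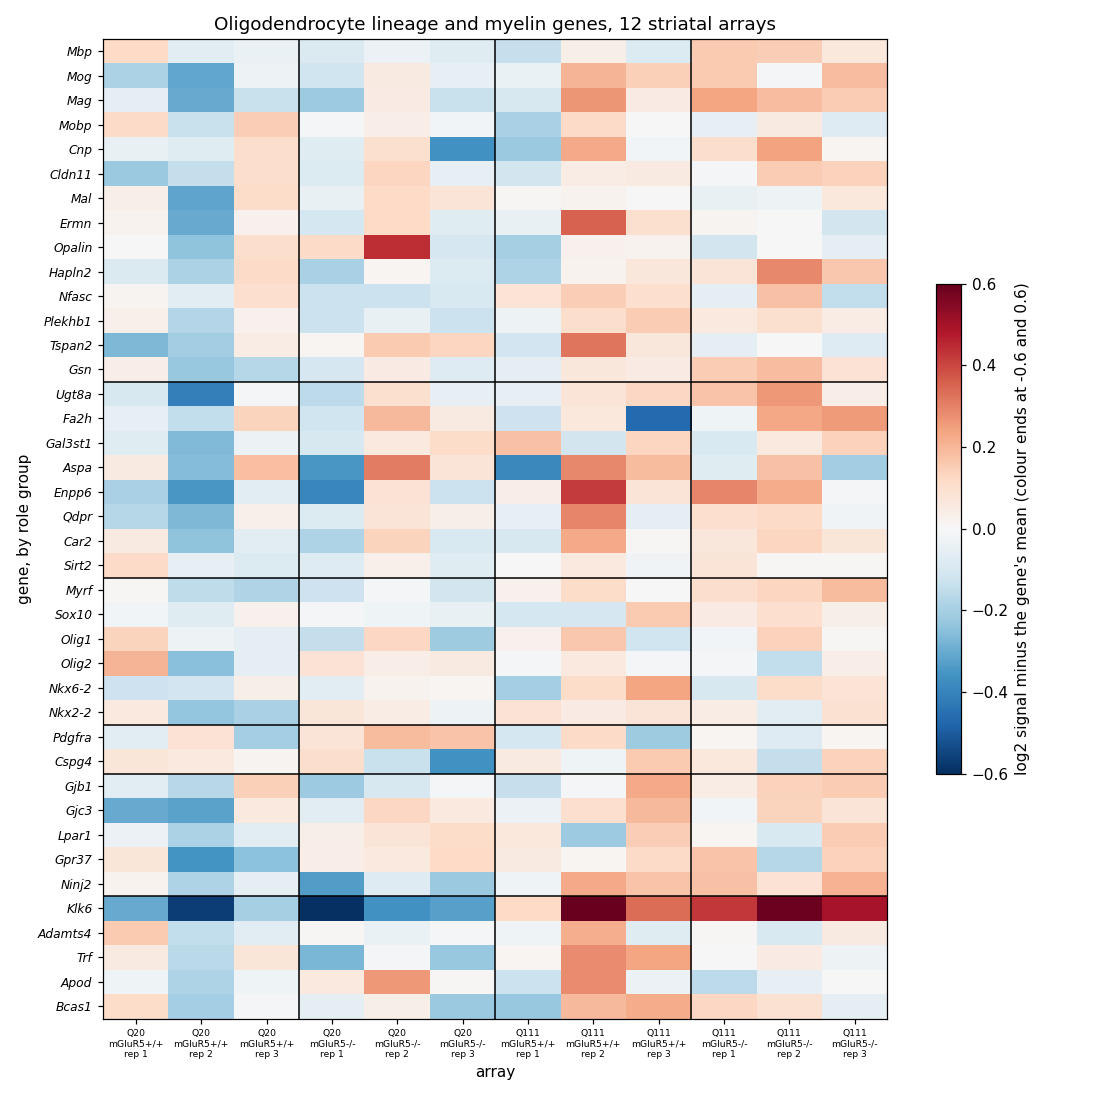
Log2 signal of the 40 members minus each gene's mean over the 12 arrays (colour, from -0.6 to 0.6), with genes in rows by role group and arrays in columns by genotype. Klk6 is the gene with the strongest contrast between Q20 and Q111 columns, and replicate 2 of Q20 with mGluR5 is blue in most rows.

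The comparison of Q111 with Q20 mice asks how the expanded allele bears on these genes. Klk6, which encodes kallikrein-related peptidase 6, a secreted protease made by oligodendrocytes, was the 1 member whose difference passed the test. It rose 1.65-fold in Q111 mice with mGluR5 and 2.02-fold in Q111 mice without mGluR5. In Q20 mice with mGluR5 its signal was 7.88, 7.62 and 7.99, and in Q20 mice without mGluR5 it was 7.34, 7.82 and 7.86. In Q111 mice with mGluR5 it was 8.30, 8.82 and 8.52, and in Q111 mice without mGluR5 it was 8.61, 8.77 and 8.68. All 6 Q111 arrays lay above all 6 Q20 arrays.

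With mGluR5 the log2 difference of Klk6 was 0.72 ± 0.15 (SE, limma, adjusted p = 0.0471), and without mGluR5 it was 1.01 ± 0.15 (adjusted p = 0.00294). Genes were called where the Benjamini-Hochberg adjusted p over 16721 genes was under 0.05. With mGluR5 this called 0.574% of all genes, 0.299% higher and 0.275% lower in Q111, and without mGluR5 0.885%, 0.341% higher and 0.544% lower. Of the 40 members 1 was called each time, Klk6, as higher. Averaged over both receptor genotypes the difference was 0.87 ± 0.11, or 1.82-fold (adjusted p = 0.000425), in a comparison that called 1.32% of genes, 0.496% as higher and 0.825% as lower. The effect of the allele on Klk6 with and without mGluR5 differed by 0.29 ± 0.21, which was not called (adjusted p = 0.9999).

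The rise of Klk6 with mGluR5 stood close to the threshold. It lost its call in 9 of the 12 fits that each left out 1 array, with log2 differences of 0.58 to 0.84 and adjusted p of 0.0249 to 0.253, the highest without replicate 2 of Q20 with mGluR5. It kept its call only without replicate 1 of Q111 with mGluR5, and without replicate 1 or 3 of Q20 without mGluR5. It also lost it with limma's default array weights (0.455), in an unmoderated model (0.27) and with only the groups compared (0.0916). Without a filter on low signal it lost it narrowly (0.0539). Without mGluR5, and for the average, it was called in all 12 fits that left out 1 array, with adjusted p of at most 0.0195 and 0.00197. The unmoderated model took the adjusted p without mGluR5 to 0.0683.

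Klk6 lies within a cluster of kallikrein genes on chromosome 7, where Grm5 also lies. None of the 10 tested genes nearest to it, 5 on each side, was called by limma with or without mGluR5, where 2 and 1 had an unadjusted p below 0.05, and their log2 differences ran from -0.09 to 0.30 with mGluR5 and from -0.08 to 0.39 without. In the average 1 of the 10 was called, the pseudogene Klk1b7-ps, at 0.29 ± 0.06 (adjusted p = 0.0373). These neighbours were looked up after the values of Klk6 were known. Cross-hybridisation within the kallikrein family was not tested.

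**Figure D2:**
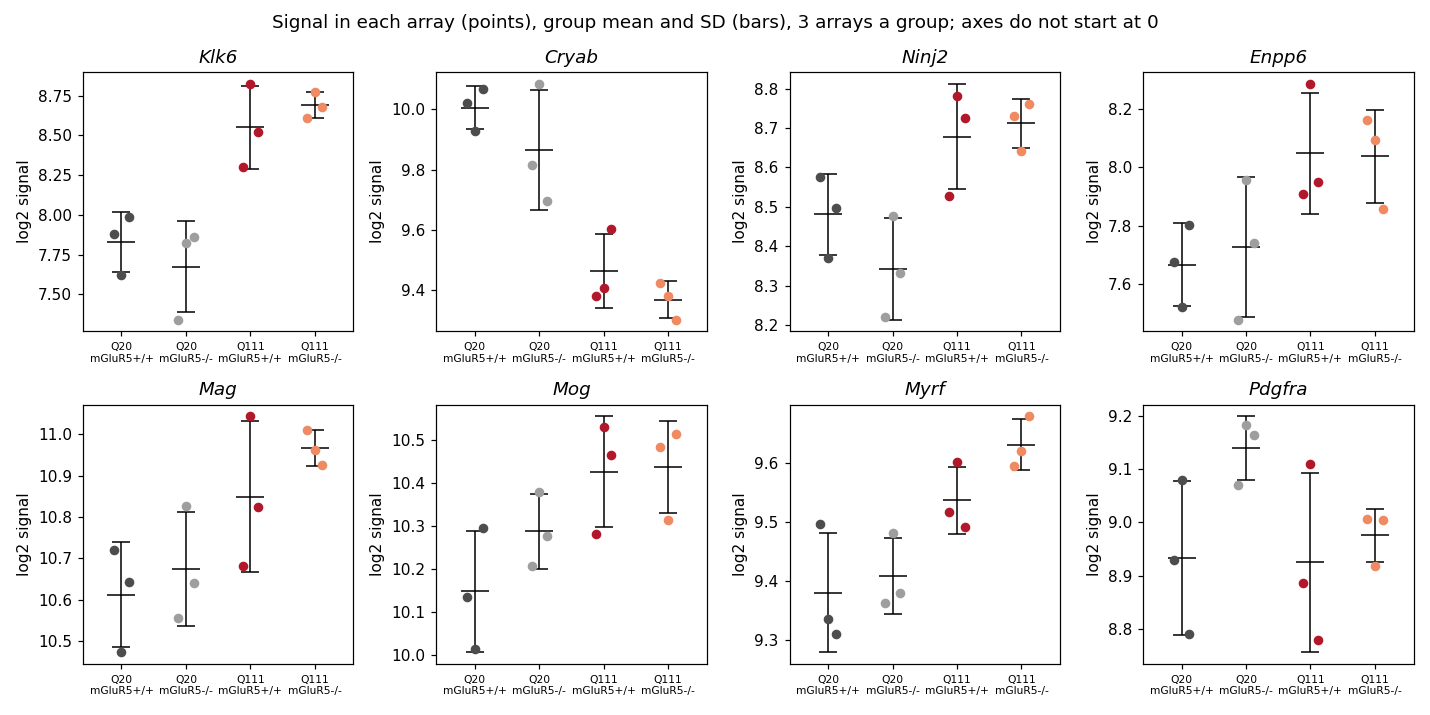
Log2 signal of Klk6, Cryab, Ninj2, Enpp6, Mag, Mog, Myrf and Pdgfra in each of the 12 arrays (points), with the mean and SD of each group of 3 (bars); the axes do not start at 0. For Klk6 every Q111 array lies above every Q20 array, and for Cryab every Q111 array lies below every Q20 array, while the groups of the other genes overlap for at least 1 receptor genotype.

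The other 39 members did not pass the test in any comparison of the alleles, but most had a higher signal in Q111 mice. With mGluR5, 35 of 40 members lay above 0, with a median log2 difference of 0.11, against 45.9% of all genes and a median of -0.01. Without mGluR5, 28 of 40 lay above 0 with a median of 0.10, against 43.3% and -0.02. In both comparisons together, 26 members were higher in Q111, 3 were lower, and 11 differed in sign. In the average 33 lay above 0, with a median of 0.10, against 43.4% of genes and -0.02. The typical member difference was thus about as large as 1 standard error, whose median was 0.11 with mGluR5.

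The count with mGluR5 leaned on single arrays. Without replicate 2 of Q20 with mGluR5, 26 of 40 members lay above 0 with a median of 0.05, while 7986 of 16721 genes did. By role, 8 of 14 sheath genes, 5 of 8 metabolic enzymes and 3 of 6 transcription factors were then above 0. Both precursor receptors, 4 of 5 connexins and receptors and 4 of 5 secreted and other genes were too. In the average of the receptor genotypes 30 members were, with a median of 0.07. Without replicate 2 of Q111 with mGluR5, 28 lay above 0 with a median of 0.07. Centring each array on its median left 34 members above 0 with mGluR5 and 26 without, and a further quantile normalization gave 37 and 32. Most members thus still lay above 0 under both scalings. The shares of all genes above 0 under these scalings, and without replicate 2 of Q111 with mGluR5, are not given here. In bulk tissue, a difference in the number of cells of a type and one in RNA per cell cannot be told apart.

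**Figure D3:**
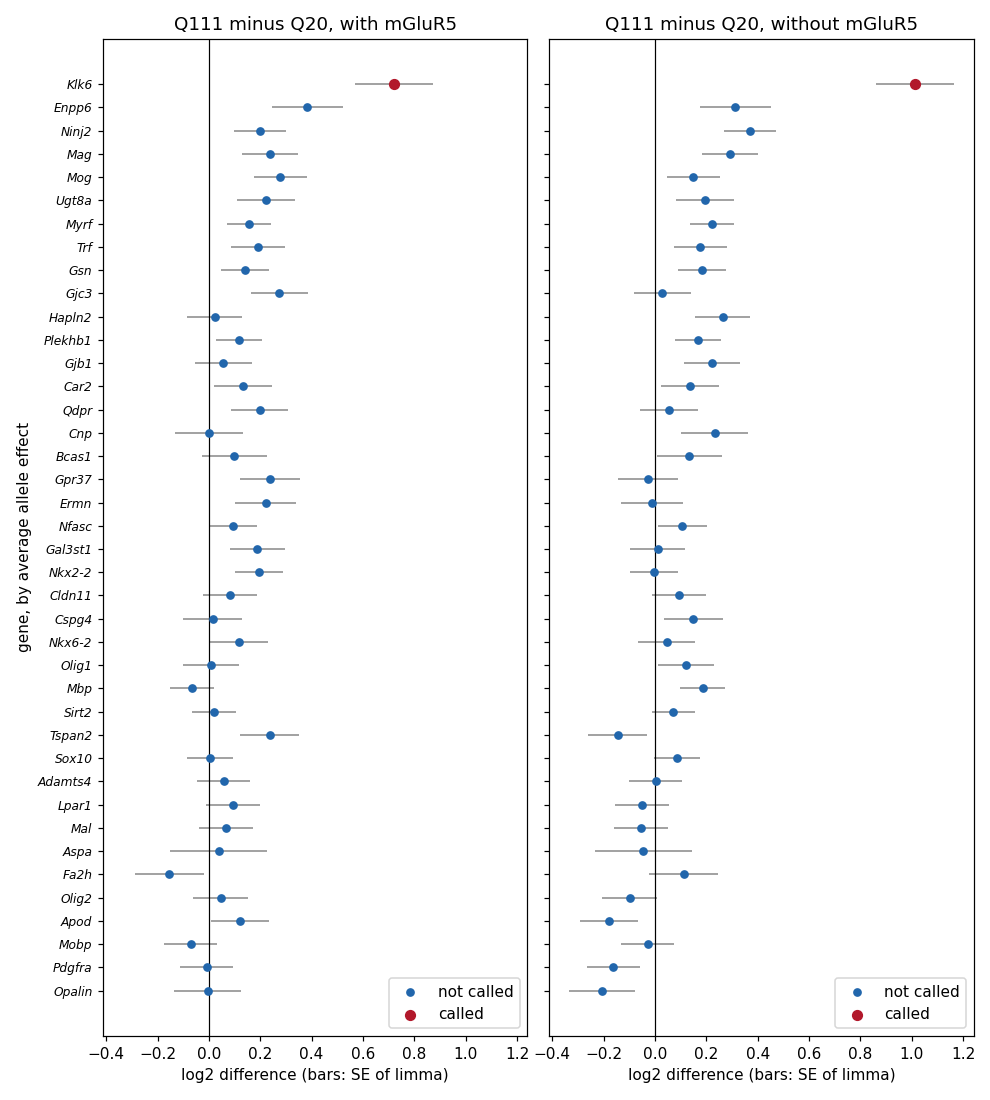
Log2 difference between Q111 and Q20 mice for each of the 40 members (points) with the standard error of limma (bars), with mGluR5 at left and without at right, ordered by the average of both. Klk6, at 0.72 and 1.01, is the only called member, and most other members lie between 0 and 0.4.

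Among the proteins of the myelin sheath, 11 of 14 genes lay above 0 with mGluR5 and 9 of 14 without, and none was called. Mag, myelin-associated glycoprotein on the inner face of myelin, had signals of 10.72, 10.47 and 10.64 in Q20 with mGluR5 and 10.56, 10.83 and 10.64 in Q20 without. In Q111 mice its signals were 10.68, 11.04 and 10.82 with mGluR5 and 11.01, 10.96 and 10.93 without. The groups overlapped with mGluR5 and not without it. The log2 difference of Mag was 0.24 ± 0.11 with mGluR5 (adjusted p = 0.715) and 0.29 ± 0.11 without (adjusted p = 0.37). Without replicate 2 of Q20 with mGluR5 the former was 0.17 ± 0.12.

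Mog, myelin oligodendrocyte glycoprotein on the outer face of myelin, read 10.14, 10.01 and 10.29 in Q20 mice with mGluR5 and 10.21, 10.38 and 10.28 in those without. In Q111 mice it read 10.28, 10.53 and 10.47 with mGluR5 and 10.48, 10.31 and 10.51 without. Its groups overlapped under both receptor genotypes, at differences of 0.28 ± 0.10 (adjusted p = 0.488) and 0.15 ± 0.10 (adjusted p = 0.725), the former 0.21 ± 0.11 without that array. The 2 of 14 sheath genes below 0 on average, named after their values were seen, were Mobp at -0.05 ± 0.07 and Opalin at -0.11 ± 0.09, both products of mature oligodendrocytes.

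The group of metabolic enzymes held genes of myelin lipid and acetate metabolism, and also Car2, Qdpr and Sirt2. Of these enzymes, 7 of 8 lay above 0 with mGluR5 and 7 of 8 without, and 6 of 8 on average. Enpp6, a choline phosphodiesterase of newly forming oligodendrocytes, had signals of 7.68, 7.52 and 7.80 in Q20 mice with mGluR5 and of 7.48, 7.96 and 7.74 without. In Q111 mice they were 7.91, 8.29 and 7.95 with mGluR5 and 8.16, 8.09 and 7.86 without. The groups did not overlap with mGluR5 and did without it. Its difference of 0.38 ± 0.14 with mGluR5 (adjusted p = 0.457), of 0.31 ± 0.14 without (adjusted p = 0.484) and of 0.35 ± 0.10 on average (adjusted p = 0.119) did not pass the test. Without replicate 2 of Q20 with mGluR5 it was 0.31 ± 0.15 with mGluR5 and 0.31 ± 0.10 on average. The median difference of the 8 enzymes was 0.16 with mGluR5 and 0.09 without.

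The transcription factors differed little. Myrf, the regulator that switches on myelin genes, read 9.50, 9.34 and 9.31 in Q20 with mGluR5 and 9.36, 9.48 and 9.38 in Q20 without. In Q111 mice it read 9.52, 9.60 and 9.49 with mGluR5 and 9.59, 9.62 and 9.68 without. Arrays without mGluR5 did not overlap between the alleles, and the average difference was 0.19 ± 0.06 (adjusted p = 0.203). Olig1 differed by 0.06 ± 0.08 on average, and the 6 factors had medians of 0.08 with mGluR5 and 0.07 without, with 6 and 4 of 6 above 0. The precursor gene Pdgfra differed by -0.01 ± 0.10 with mGluR5 (0.07 ± 0.11 without replicate 2 of Q20 with mGluR5, a change of sign) and -0.16 ± 0.10 without, and Cspg4 by 0.01 ± 0.12 and 0.15 ± 0.12.

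Of the connexins and receptors, all 5 lay above 0 with mGluR5 and 3 of 5 without. Ninj2, the adhesion protein ninjurin 2, had signals of 8.57, 8.37 and 8.50 in Q20 with mGluR5 and 8.22, 8.48 and 8.33 in Q20 without. Q111 mice gave 8.53, 8.78 and 8.73 with mGluR5 and 8.73, 8.64 and 8.76 without. The alleles overlapped with mGluR5 and not without it. Ninj2 had the smallest p of the members after Klk6, at an average difference of 0.28 ± 0.07 (adjusted p = 0.0735), or 0.26 ± 0.08 without replicate 2 of Q20 with mGluR5 (adjusted p = 0.207). It crossed the threshold under a block for the replicate number (adjusted p = 0.0398), a further quantile normalization (0.0356), a stricter filter on low signal (0.0462) and the interquartile range of the array as a covariate (0.034). Gjc3, the connexin of oligodendrocyte gap junctions, differed by 0.27 ± 0.11 with mGluR5 (adjusted p = 0.593; 0.21 ± 0.12 without that array) and 0.03 ± 0.11 without. In the remaining group of secreted and other genes, 5 of 5 lay above 0 with mGluR5 and 4 of 5 without, and Trf, transferrin, differed by 0.19 ± 0.10 and 0.18 ± 0.10.

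Counting genes whose 3 Q111 arrays and 3 Q20 arrays did not overlap gave another view of the same values. With mGluR5, 2 members lay wholly higher in Q111, Klk6 and Enpp6, and none wholly lower, against 4.39% and 5.3% of all genes, or 9.69% in either direction. Without mGluR5, 10 members lay wholly higher: Gjb1, Gsn, Hapln2, Klk6, Mag, Mbp, Myrf, Ninj2, Plekhb1 and Sox10, against 6.07% of genes, and 19.1% in either direction. Another 3 lay wholly lower, Apod, Pdgfra and Tspan2, against 13% of genes. Over all 6 arrays of each allele, Klk6 was wholly higher and no member wholly lower, against 0.437% and 0.771% of genes, or 1.21% in either direction. Unadjusted p below 0.05 was reached by 5 members with mGluR5, 6 without and 10 on average, against 6.84%, 9.44% and 11.4% of genes.

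Genes of the same cells outside the list were followed to place the members. Of 45 other genes of mature oligodendrocytes, 34 lay above 0 with mGluR5 and 33 without, with medians of 0.11 and 0.08, close to the members' own. Of 19 other precursor genes, 11 and 9 lay above 0, with medians of 0.01 and -0.02. Of these, Cryab was the 1 gene called in a comparison of the alleles. Cryab encodes alpha-B-crystallin, a small heat shock protein found in oligodendrocytes and astrocytes, and it fell in Q111 mice.

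Cryab read 10.02, 9.93 and 10.07 in Q20 mice with mGluR5 and 9.81, 10.09 and 9.70 in those without. In Q111 mice it read 9.38, 9.41 and 9.60 with mGluR5 and 9.42, 9.38 and 9.30 without. The highest of the 6 Q111 arrays was below the lowest of the 6 Q20 arrays. Its log2 difference was -0.54 ± 0.11 with mGluR5 (adjusted p = 0.0301), -0.50 ± 0.11 without (adjusted p = 0.0401) and -0.52 ± 0.08 on average (adjusted p = 0.00188). The average was called in all 12 fits that left out 1 array, but the call with mGluR5 was lost in 6 of them and the call without mGluR5 in 9, at adjusted p of up to 0.165 and 0.188. Both calls were also lost in the unmoderated model (0.135 with mGluR5 and 0.123 without) and with only the groups compared (0.0951 and 0.0673). The one with mGluR5 was lost with limma's default array weights (0.161), and the one without under quantile normalization (0.0738), median centring (0.0512) and no filter (0.0508). With mGluR5 it was lost without each of the 3 arrays of Q20 with mGluR5, replicate 1 of Q20 without, and replicates 1 and 2 of Q111 with. Without mGluR5 it was kept only without replicate 3 of Q20 without mGluR5 and without replicates 2 and 3 of Q111 with. The authors' criteria of p below 0.05 and at least 1.5-fold called Cryab in neither comparison. Nor did they call it in the average, because its differences were below 1.5-fold. Of the 10 tested genes nearest to it on chromosome 9, looked up after its value was known, none was called by limma with or without mGluR5, where 3 and 3 had an unadjusted p below 0.05. In the average 1 was called, 1110032A03Rik, at -0.37 ± 0.07 (adjusted p = 0.0117).

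Markers of other cell types are given beside these values by their counts. Of 14 vascular markers, 12 lay below 0 with mGluR5 and 12 without, and their mean signal ran over 7.47 to 7.61 and 7.57 to 7.64 in the Q20 groups with and without mGluR5, and over 7.28 to 7.53 and 7.38 to 7.53 in the Q111 groups. Of 11 microglial markers, 7 lay below 0 with mGluR5 and 9 without, and their mean ran over 8.17 to 8.28 and 8.19 to 8.49 in Q20 and 8.15 to 8.24 and 8.04 to 8.17 in Q111. Of 12 astrocyte markers, 6 and 5 lay above 0, and of 8 markers of thalamus and septum, 1 and 4. Of 7 cortical markers, 6 lay above 0 with mGluR5 (median 0.15) and 2 without (median -0.02). Of 10 striatal projection neuron markers 5 and 5 did, of 8 choroid plexus and ependymal markers 5 and 3, and of 5 Schwann cell markers 2 and 2. Among all these markers 1 was called, the vascular gene Abcc9, a subunit of potassium channels. It read 7.33, 7.36 and 7.37 in Q20 mice without mGluR5, above all 9 other arrays, which lay between 6.82 and 6.98. It was therefore called both between the alleles without mGluR5 (-0.46 ± 0.08, adjusted p = 0.0109) and for mGluR5 loss in Q20 mice (0.46 ± 0.08, adjusted p = 0.0203), and differed by 0.02 ± 0.08 between the alleles with mGluR5. Array signals have no true 0, so no marker can be said to be absent, and the part of these shifts in the members' values was not tested.

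**Figure D4:**
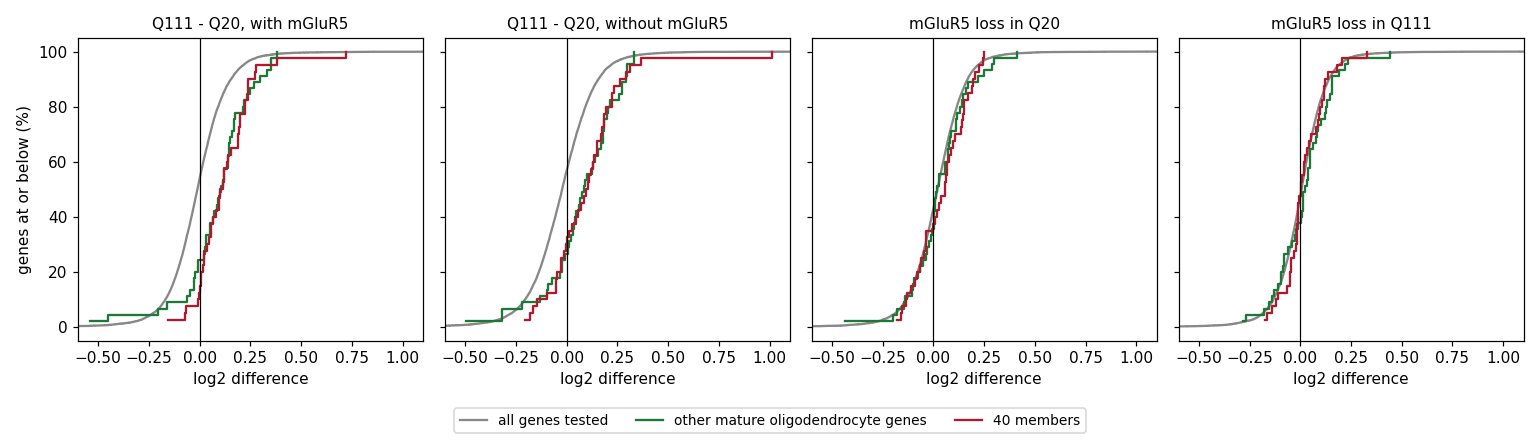
Share of genes (percent) at or below each log2 difference for all 16721 genes tested, 45 other mature oligodendrocyte genes and the 40 members, in the comparisons of the alleles with and without mGluR5 and of mGluR5 loss in Q20 and Q111 mice. In both comparisons of the alleles the member curve lies to the right of all genes, with medians of 0.11 and 0.10, and in those of mGluR5 loss the curves lie close together, with medians of 0.06 and 0.0039.

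Loss of mGluR5 was compared within each allele, and no member passed the test. In Q20 mice 25 of 40 members lay above 0 without the receptor, with a median difference of 0.06, against 57% of genes and a median of 0.02. Without replicate 2 of Q20 with mGluR5 the median turned to -0.02 and 17 of 40 lay above 0. In Q111 mice 21 of 40 lay above 0 with a median of 0.0039, against 52.6% of genes. The test called 0.299% of genes in Q20 and 0.275% in Q111 mice, and by limma's unadjusted p below 0.05 there were 0 and 1 members, against 6.02% and 4.36% of genes. In Q20 mice Apod and Lpar1 lay wholly higher without the receptor, against 7.89% of genes, and Nfasc wholly lower, against 4.92%. Those add up to 3 of 40 members, against 12.8% of genes. Members ranged from -0.18 to 0.25 in Q20 mice and from -0.17 to 0.33 in Q111 mice, where the median standard error was 0.11.

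The smallest p in Q20 mice belonged to Gpr37, a receptor of the oligodendrocyte lineage. It read 8.61, 8.18 and 8.29 with mGluR5 and 8.58, 8.60 and 8.66 without, a difference of 0.25 ± 0.12 (adjusted p = 0.831). The next, Tspan2, a tetraspanin of myelin, read 9.18, 9.24 and 9.49 with and 9.45, 9.60 and 9.58 without (0.24 ± 0.11, adjusted p = 0.832). Gjc3 followed with 10.18, 10.16 and 10.54 against 10.41, 10.60 and 10.54 (0.23 ± 0.11, adjusted p = 0.883). In all 3 genes replicate 2 of Q20 with mGluR5 was among the lower arrays, and the groups overlapped. Without that array the differences were 0.16 ± 0.12 for Gpr37, 0.21 ± 0.13 for Tspan2 and 0.16 ± 0.12 for Gjc3.

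In Q111 mice Fa2h, the fatty acid hydroxylase of myelin galactolipids, read 9.83, 10.02 and 9.49 with mGluR5 and 9.93, 10.19 and 10.21 without (0.33 ± 0.13, adjusted p = 0.936). Its replicate 3 with mGluR5 was the lowest of the 12 arrays, and the groups overlapped. Mbp read 11.22, 11.40 and 11.28 with mGluR5 and 11.52, 11.51 and 11.42 without (0.18 ± 0.09, adjusted p = 0.99992). Hapln2, a link protein of the nodes of Ranvier, read 7.90, 8.11 and 8.15 against 8.16, 8.37 and 8.25 (0.21 ± 0.11, adjusted p = 0.99992). For Mbp and Hapln2 the groups did not overlap, as was the case for 7.46% of all genes. Gsn, gelsolin, also lay wholly higher, so that 3 of 40 members did, against 3.77% of genes, and none lay wholly lower, against 3.69%.

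The average effect of mGluR5 loss called 0.293% of genes and no member, and 1 member had an unadjusted p below 0.05, against 5.32% of genes. That was Trf, the iron carrier transferrin, which read 11.61, 11.40 and 11.63 in Q20 mice with mGluR5 and 11.28, 11.55 and 11.33 without. In Q111 mice it read 11.57, 11.84 and 11.80 with and 11.56, 11.61 and 11.53 without. The average difference was -0.17 ± 0.07 (adjusted p = 0.901), with overlap in each allele. Fa2h followed at 0.20 ± 0.10 (adjusted p = 0.965). Nfasc, the neurofascin that anchors myelin to the axon, read 10.24, 10.15 and 10.32 against 10.09, 10.09 and 10.13 in Q20 mice, where the groups did not overlap. In Q111 mice it read 10.31, 10.37 and 10.32 against 10.17, 10.40 and 10.08, which overlapped, and the average was -0.13 ± 0.07 (adjusted p = 0.99984). Of the 40 members 27 lay above 0 on average, against 57% of genes, with a median of 0.04, and 22 did without replicate 2 of Q20 with mGluR5, with a median of 0.01.

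Whether the effect of the allele depended on mGluR5 was tested by the interaction, which called 0.437% of genes and no member, with 1 member at an unadjusted p below 0.05, against 5.37% of genes. That member was Tspan2. Its signals in Q111 mice were 9.33, 9.77 and 9.51 with mGluR5 and 9.38, 9.44 and 9.37 without, so that Q111 exceeded Q20 by 0.24 with mGluR5 and lay below it by 0.15 without. The interaction of Tspan2 was -0.38 ± 0.16 (adjusted p = 0.848). Mbp, at 11.48, 11.30 and 11.32 in Q20 with mGluR5 and 11.28, 11.33 and 11.29 in Q20 without, had an interaction of 0.25 ± 0.12 (adjusted p = 0.967).

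Apod read 10.59, 10.43 and 10.59 in Q20 mice with mGluR5 and 10.67, 10.87 and 10.62 without, and 10.48, 10.90 and 10.58 in Q111 mice with mGluR5 and 10.45, 10.56 and 10.62 without. Its interaction was -0.30 ± 0.16 (adjusted p = 0.9999). Of the 40 members, 20 had an interaction above 0, with a median of -0.0045, against 46.4% of all genes. Without replicate 1 of Q111 with mGluR5, 13 lay above 0, and without replicate 2 of Q20 with mGluR5, 26 did. The median standard error of an interaction was 0.15.

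The members also varied together within groups, which the choice of the list did not use. Deviations of the 12 arrays from their group means were correlated for each pair of genes, as a description without a test, since all pairs share the same arrays and their normalization. Over 780 pairs the median r was 0.41, and 625 pairs were above 0. Pairs of all genes were not correlated, so whether the members exceeded them was not tested. Among the 14 sheath genes the median was 0.61, with 89 of 91 pairs above 0, and between sheath genes and metabolic enzymes it was 0.56. Pairs of the 6 transcription factors had a median of 0.03, with 8 of 15 above 0. Pairs of a sheath gene with Pdgfra or Cspg4 had a median of -0.17, with 9 of 28 above 0. Sheath genes and metabolic enzymes thus varied together from array to array, more closely than the factors did among themselves.

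Array means show where this shared variation lay. The mean of the 14 sheath genes ran from 9.95 to 10.18 in Q20 mice with mGluR5, from 10.06 to 10.22 in Q20 without, from 10.05 to 10.28 in Q111 with and from 10.18 to 10.25 in Q111 without. Each range overlapped with the others. The SD within a group was 0.12, 0.09, 0.12 and 0.04 in that order, against a median average allele difference of 0.10 over the sheath genes. The correlation of a member's deviations with those of the interquartile range of the array had a median r of 0.22, with 29 of 40 above 0. Over all genes the median was 0.31, with 60.1% above 0. With that range as a covariate, 4 members were called in the average of the alleles, Klk6, Ninj2, Enpp6 and Mag, while the share of all genes called rose from 1.32% to 2.92%. For Enpp6 the difference was then 0.42 ± 0.09 (adjusted p = 0.0181) and for Mag 0.30 ± 0.07 (adjusted p = 0.0365).

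**Figure D5:**
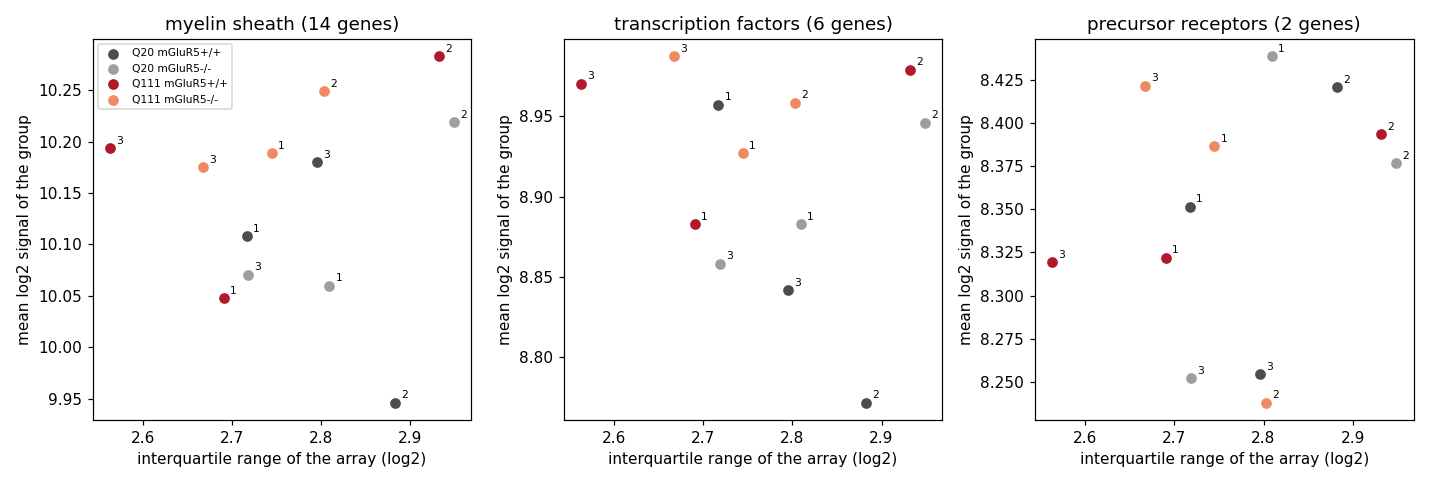
Mean log2 signal of 14 sheath genes, 6 transcription factors and 2 precursor receptors in each array (points, numbered by replicate, coloured by group) against the interquartile range of that array's log2 signals. Replicate 2 of Q20 with mGluR5 is the lowest array for sheath genes, at 9.95, and replicate 2 of Q111 with mGluR5 the highest, at 10.28, at similar interquartile ranges of 2.88 and 2.93.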

How the data were processed

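RNA of mouse striatum was measured on 12 arrays, 3 in each of 4 groups. The deposited log2 signals were made by the authors with Partek Genomics Suite 6.5 and RMA, per the series' design text and the submitters' processing notes. RMA corrects background, equalizes arrays by quantiles and summarizes probes, so array-wide differences are partly removed before deposit. The authors' criteria were an ANOVA p below 0.05 and 1.5-fold. Of 35556 probe sets, 21789 carried 1 gene symbol and 1621 several, and each gene took its set with the highest mean. Genes above the 25th percentile of the array in at least 3 arrays were tested, 16721 of 19938. limma 3.58.1 (R 4.3.3) fitted the 4 group means jointly (8 residual and 6.88 prior degrees of freedom), and 7 two-sided contrasts were adjusted by Benjamini-Hochberg. The fit was tested on simulated data. Arrays hold no counts, and their number limits the precision.

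Promoters came from RefSeq (GRCm38.p6) through symbols. The members, the lists and the tests were chosen with earlier results of these data known. Genes given in full were members called in any comparison, the 3 members with the smallest unadjusted p in each, and, as levels, the 2 members with the highest mean in each role group. Of the other lists, called genes were named. The neighbours of Klk6 and Cryab and the promoter letters were chosen after their values or sequences were seen. Same-numbered arrays were not paired by the labels, so the main fit used no pairing. Their deviations correlated at -0.04 to 0.22, 0.34 to 0.57 and -0.14 to 0.46 for numbers 1, 2 and 3. In each group, number 2 had the widest interquartile range. It was 2.88 and 2.95 in Q20 with and without mGluR5, and 2.93 and 2.80 in Q111 with and without. Values thus partly followed the replicate number, and the reason was not tested. The alternatives were an unmoderated model, an intensity trend, the authors' criteria, a replicate block, array weights, other scalings and filters, the mean of a gene's probe sets, the interquartile range as a covariate, only the groups compared, and leaving out each array.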

Additional observations from a re-analysis of the deposited data

How the results depend on the processing

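Differences were recomputed for the called members and the 3 with the smallest p in each comparison, and none of these reversed. Many settings could not reverse them. The unmoderated model, the intensity trend, the authors' criteria, the replicate block, the filters and the mean of probe sets left each difference unchanged. Using only the groups compared, or leaving out an array outside the comparison, did so too. The genes were also picked by their p in these data. Of the recomputed differences, 488 kept their side of the threshold, 14 gained a call and 14 lost one. A kept side includes genes uncalled in both fits. In Q111 against Q20 with mGluR5 the members called went from 1 to 0 under the unmoderated model (0.209% of genes called) and without a filter (0.461%). They also went to 0 with only the groups compared (0.281%) and with array weights (0.263%). Leaving out an array gave 0 to 1, at 0.263% to 0.766% of genes. Without mGluR5 they went to 0 under the unmoderated model (0.544%). In the average of the alleles they went from 1 to 2 with the replicate block or the stricter filter (2.91% and 2% of genes called), to 3 with quantile normalization (1.79%) and to 4 with the interquartile range as a covariate (2.92%). The replicate block called 487 genes there in place of 221 (the covariate 488), and 204 in place of 96 and 343 in place of 148 with and without mGluR5. It moved no other count of members. As to pairing, 8 of 12 arrays correlated best, on average over the other groups, with arrays of their own number among the 3 numbers. This is a hint from the data and not the design. Members with an interaction above 0 ranged from 13 to 26 when an array was left out.

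Array weights estimated by limma's default stopped with a convergence warning, with weights of 0.178 to 12.3. That fit called 0 members with mGluR5 (0.263% of genes) and 15 without (and 3270 genes, 19.6%). It called 7 for mGluR5 loss in Q20 mice (12.7% of genes) and 4 in the average of the alleles (2.34%). For mGluR5 loss, 15 and 17 members lay above 0 in Q20 mice and on average. The unmoderated model called 35 genes with mGluR5 in place of 96. A gene by gene estimate was added after this outcome was seen, and gave 5 members without mGluR5 (5.63% of genes) and 6 in the average of the alleles (11.4%). Neither is preferred here, and the cause of these shifts was not tested. With 3 arrays a group, differences of the size most members showed could not be separated from 0.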
